A study of Homo sapiens with 21 samples.

Results

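The genes of oxidative phosphorylation were followed in 7 drug-resistant clones of Panc-1, a long-established human cell line from a ductal carcinoma of the pancreas. Members were the protein-coding rows of the deposited count table named as subunits of complexes I to V (NDUF, SDH, UQCR, CYC1, COX4 to COX8 and ATP5 names, and the mitochondrial MT-ND, MT-CO, MT-CYB and MT-ATP genes), together with the regulators PPARGC1A and TFAM. This gave 104 of 58233 rows, 91 of them nuclear and 13 mitochondrial. The nuclear subunits were 36 of complex I, 5 rows of complex II, 10 of complex III, 18 of complex IV (NDUFA4 was placed here despite its name) and 20 of complex V. The mitochondrial ones were 7 of complex I, 1 of complex III, 3 of complex IV and 2 of complex V. Nuclear complex V stands here for every nuclear row with an ATP5 name, ATP5S and ATP5SL among them.

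ATUX8H and ATUX9D are clones selected in ATUX. The SMAP clones are SMAP8D, SMAP9C and SMAP6G. The Sorafenib clones are Sor6G and Sor9H; Sorafenib inhibits kinases that include RAF and the receptors of VEGF. Activators of protein phosphatase 2A are named in the design text. The drug was raised in steps over 4 months, colonies were then picked after limiting dilution, and every clone was kept in 8 µM of its drug. The lines sequenced were picked with the help of earlier expression measurements, each line is 1 clone, and untreated Panc-1 was not analysed here. Each clone had 3 repeat libraries of poly-A RNA.

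Oxidative phosphorylation passes electrons from NADH (complex I) and succinate (complex II) through complexes III and IV to oxygen, and the proton gradient so built drives ATP synthesis by complex V. Most subunits are nuclear genes, translated in the cytosol and imported, whereas the mitochondrial genome encodes a small set of core subunits of complexes I, III, IV and V, transcribed as long polycistronic RNAs that are cut and polyadenylated. PGC-1alpha (PPARGC1A) coactivates the transcription of nuclear respiratory genes, and TFAM packages mitochondrial DNA and starts its transcription.

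Libraries held 21022621 to 27691256 counts (median 23026429), and levels are given as CPM (counts scaled to library size) after TMM scaling. The table's genes for duct epithelium, the labelled cell type (KRT7, KRT8, KRT18, KRT19, EPCAM, CDH1 and MUC1), summed to 7013 to 13186 CPM in ATUX, 3324 to 5033 CPM in Sorafenib and 1405 to 3192 CPM in SMAP libraries, with none of the 7 at 0. The 12 markers of other cell types summed to at most 3.39 CPM in any library, and 3 to 5 of them were at 0 in each drug. The sum is carried by KRT8, KRT18 and KRT19. KRT8 was higher in ATUX clones, at 5199 CPM, than in SMAP clones, at 1072 CPM (edgeR adjusted p = 0.0123). CDH1 and EPCAM were low in most clones. CDH1 was at 76.2 and 7.12 CPM in ATUX8H and ATUX9D, and 1.27 and 0.163 CPM in Sor6G and Sor9H. Its log2 for ATUX against Sorafenib was 5.88 (edgeR adjusted p = 0.0357). EPCAM lay between 1.61 CPM in SMAP9C and 8.34 CPM in ATUX8H. Some single markers differed in other orders. KRT7 was highest with Sorafenib, at 29.8 CPM against 13.7 CPM in ATUX and 7.16 CPM in SMAP clones (edgeR adjusted p = 0.0437 and 0.00361). MUC1 was higher in SMAP clones, at 33.1 CPM, than with Sorafenib, at 18.8 CPM (edgeR adjusted p = 0.049). The part of these marker differences in the results was not tested. The third Sor9H library stood apart, with 3.04% of its counts from the 13 mitochondrial members against 3.86 to 4.56% in the other Sorafenib libraries. The third ATUX libraries stood apart too. The chi-square per degree of freedom against the other repeats was 26.7 and 27.4 for ATUX8H and 18.6 and 22.8 for ATUX9D, beside 14.3 and 12.8 for the third Sor9H library and at most 5.18 for repeat pairs without these 3. The third ATUX8H library had 2.64% mitochondrial counts against 3.09 and 3.29% in its repeats. Calls of members named below that changed without these libraries are given with and without them. In bulk RNA, fewer cells of a type and less RNA per cell cannot be told apart.

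PPARGC1A (ENSG00000109819, GRCh38 chr4:23755041-23904089, minus strand) differed between all 3 drugs. It was highest in the Sorafenib clones, low in the ATUX clones and close to undetected in the SMAP clones. The 6 Sorafenib libraries lay between 10.96 and 15.04 CPM (median 13.07), the 6 ATUX libraries between 0.386 and 1.17 CPM (median 0.659), and the 9 SMAP libraries between 0 and 0.0893 CPM (median 0). No libraries of different drugs overlapped. Over clones the means were 13.03 ± 1.88 CPM in Sorafenib clones (SD, n = 2), 0.726 ± 0.347 CPM in ATUX clones (n = 2) and 0.0239 ± 0.00846 CPM in SMAP clones (n = 3). These rested on 1852, 101 and 5 counts. For SMAP the pooled level had a 95% exact Poisson interval of 0.00777 to 0.0558 CPM, which covers counting error only.

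The log2 difference of PPARGC1A from Sorafenib was -4.16 ± 0.42 (SE) in ATUX and -8.99 ± 0.48 in SMAP clones, and ATUX exceeded SMAP by 4.83 ± 0.46 (edgeR quasi-likelihood adjusted p = 0.003, 0.000465 and 0.00659). These calls were all kept under every alternative tried. The 14 other genes within 5 Mb with at least 5 CPM had median log2 differences of -0.14, -0.37 and 0.01 in the same order. Within ATUX, PPARGC1A was higher in ATUX8H than in ATUX9D (log2 = 1.03, edgeR adjusted p = 0.00691), a call lost without the third ATUX libraries (log2 = 0.87, edgeR adjusted p = 0.0601), where a p between clones measures only the spread between repeat libraries, which may be technical.

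TFAM (ENSG00000108064) did not follow PPARGC1A. The SMAP libraries lay highest, at 94.6 to 109.5 CPM (median 100.6), the ATUX libraries at 77.3 to 96.3 CPM (median 83.5) and the Sorafenib libraries lowest, at 66.7 to 70.9 CPM (median 69.7). The Sorafenib libraries overlapped neither other drug, while the ATUX and SMAP libraries overlapped. TFAM was higher in SMAP than in Sorafenib clones (log2 = 0.53 ± 0.12, edgeR adjusted p = 0.015). That call was lost when Sor6G or Sor9H was left out (edgeR adjusted p = 0.0772 and 0.0725). The ATUX against Sorafenib value of 0.32 ± 0.13 did not pass (edgeR adjusted p = 0.104). P-values between drugs measure the spread between picked clones, and whether those of a drug came from separate cultures is not stated in the labels.

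**Figure D1:**
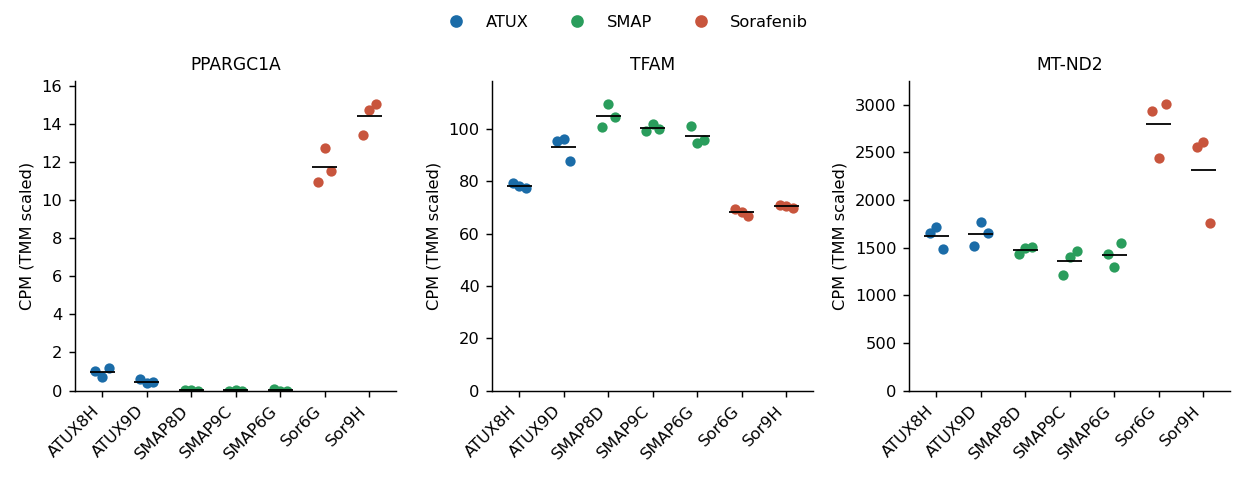
CPM after TMM scaling of PPARGC1A, TFAM and MT-ND2 in each of the 21 libraries, by clone; points are repeat libraries, black bars clone means, colours the drug. PPARGC1A lies between 10.96 and 15.04 CPM in the Sorafenib libraries and at or below 1.17 CPM in all others, TFAM is lowest in the Sorafenib libraries, and MT-ND2 is higher in the Sorafenib libraries, the third Sor9H library being the lowest of them.

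Other regulators of nuclear respiratory genes were read from a list of 16 genes, 15 of them tested. Of these, 2 passed as higher and 3 as lower for ATUX against Sorafenib, 3 passed as higher and 3 as lower for SMAP against Sorafenib, and 1 passed as higher and 1 as lower for ATUX against SMAP (33.3, 40 and 13.3% called, beside 25.8, 34.5 and 10.3% of all genes). PPARGC1B, which encodes the related coactivator PGC-1beta, went the other way between ATUX and Sorafenib: it was at 6.96 ± 1.21 CPM in ATUX clones and 0.079 ± 0.0551 CPM in Sorafenib clones (log2 = 6.45 ± 0.98, edgeR adjusted p = 0.00765). PPARA, a nuclear receptor of fatty acid oxidation and a partner of PGC-1alpha, was highest with Sorafenib at 48.1 ± 5.13 CPM, against 21.8 ± 0.795 CPM in ATUX clones and 12.9 ± 2.54 CPM in SMAP clones. Its log2 differences from Sorafenib were -1.14 ± 0.20 and -1.90 ± 0.18 (edgeR adjusted p = 0.0105 and 0.00128). PRKAA1, a catalytic subunit of the energy sensor AMPK, was highest with SMAP at 259.0 ± 28.9 CPM, against 151.6 ± 10.4 CPM in Sorafenib clones (log2 = 0.77 ± 0.16, edgeR adjusted p = 0.012).

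Against Sorafenib, the shares of counts from the 2 genomes differed in opposite directions. Between ATUX and SMAP clones the nuclear share was higher with ATUX. The mitochondrial shares overlapped there, SMAP8D (3.16%) and SMAP6G (3.18%) lying above ATUX8H (3.00%). These shares are a description with no test. The share of counts from the 13 mitochondrial members was 4.10 ± 0.124% in the Sorafenib clones (SD, n = 2), 3.16 ± 0.227% in the ATUX clones (n = 2) and 3.06 ± 0.187% in the SMAP clones (n = 3). The nuclear subunit members were lowest with Sorafenib, at 0.648 ± 0.0395% with Sorafenib, 0.776 ± 0.00967% with ATUX and 0.709 ± 0.0244% with SMAP. Their share in libraries lay between 0.601 and 0.720% with Sorafenib, 0.743 and 0.822% with ATUX and 0.671 and 0.747% with SMAP. The SMAP range overlapped that of ATUX, and that of Sorafenib through the third Sor9H library only (0.720%). The ratio of mitochondrial to nuclear counts was thus 6.37 ± 0.539 with Sorafenib, 4.09 ± 0.246 with ATUX and 4.32 ± 0.159 with SMAP. In libraries, the ratio lay between 6.14 and 7.11 in the Sorafenib libraries other than the third of Sor9H, which was at 4.22. It lay between 3.34 and 4.86 in ATUX and between 3.59 and 4.65 in SMAP libraries. Only that 1 Sorafenib library fell in the range of the other drugs. The mitochondrial ribosomal RNAs, which poly-A selection retains in part, took 0.654% of counts with Sorafenib, 0.618% with ATUX and 0.821% with SMAP, so they were not highest where the mitochondrial members were. The part of RNA selection in these shares was not tested.

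**Figure D2:**
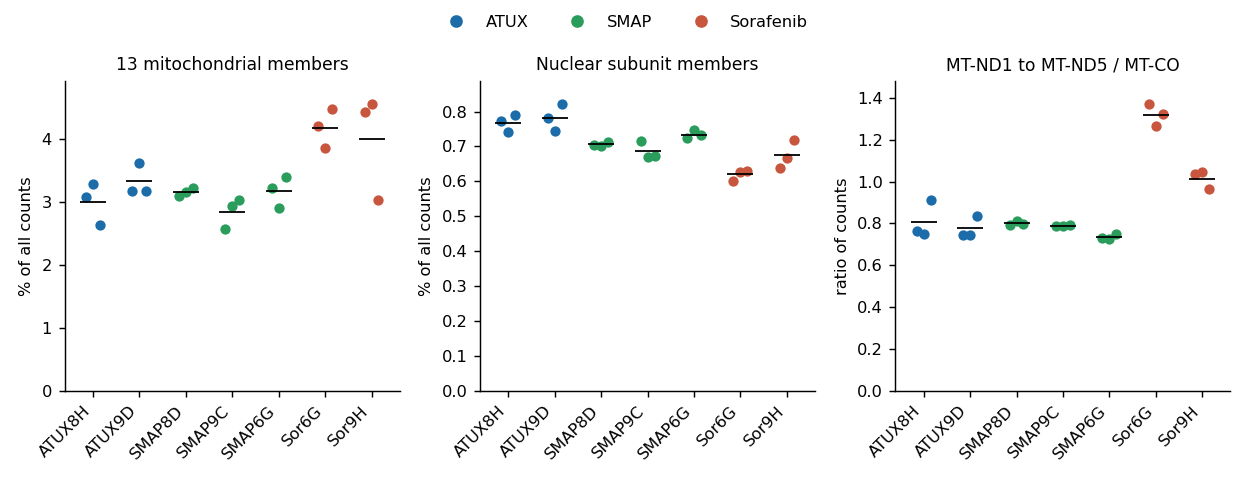
Share of all counts from the 13 mitochondrial members (left) and from the nuclear subunit members (middle), in percent, and the ratio of counts of MT-ND1 to MT-ND5 with MT-ND4L over MT-CO1 to MT-CO3 (right), per library and clone; points are repeat libraries, black bars clone means, colours the drug. The ratio lies between 0.962 and 1.37 in the Sorafenib libraries and at 0.911 or less in all others.

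Among the 13 mitochondrial genes, 5 of the 7 of complex I and cytochrome b passed as lower with ATUX, and 6 of the 7 and cytochrome b with SMAP, each against Sorafenib. MT-ND5 did not pass with ATUX (log2 = -0.39, edgeR adjusted p = 0.0628), MT-ND6 had positive values that did not pass (log2 = 0.75 and 0.12), and the cytochrome oxidase genes MT-CO1 to MT-CO3 were not called in any drug comparison. With ATUX against Sorafenib 0 were higher and 6 lower (46.2%, where 12.5% of all 18613 genes tested were called lower), with a median log2 of -0.39 beside 0.01 over all genes. With SMAP against Sorafenib 0 were higher and 8 lower (61.5%, where 17.7% of all genes were), with a median of -0.53 beside 0.01. Between ATUX and SMAP 0 of 13 were called (median 0.13 beside 0.02, 0 at an unadjusted p below 0.05 by edgeR, 0 adjusted and 1 unadjusted by DESeq2). The comparisons with Sorafenib share its clones. The mitochondrial genes also share their polycistronic transcripts, so that they are not independent of each other.

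MT-ND2, a core subunit of complex I, was at 2934, 2436 and 3006 CPM in the Sor6G libraries and at 2560, 2610 and 1758 CPM in those of Sor9H. The ATUX libraries lay between 1487 and 1772 CPM (median 1654) and the SMAP libraries between 1216 and 1545 CPM (median 1434). All Sorafenib libraries lay above all SMAP libraries, and only the third Sor9H library lay within the ATUX range. The log2 difference was -0.63 ± 0.14 with ATUX (edgeR adjusted p = 0.0226) and -0.86 ± 0.13 with SMAP (edgeR adjusted p = 0.00438). MT-ND4, the most abundant complex I transcript per kilobase, was at 8568 ± 945 CPM in Sorafenib clones, 5216 ± 598.5 CPM in ATUX clones and 5060 ± 537 CPM in SMAP clones (log2 = -0.72 ± 0.17 and -0.76 ± 0.15, edgeR adjusted p = 0.0261 and 0.0113). MT-ND3 libraries overlapped in neither comparison (log2 = -0.49 ± 0.14 and -0.70 ± 0.13, edgeR adjusted p = 0.0436 and 0.00768). MT-ND1, MT-ND4L and MT-CYB, the catalytic core of complex III, were also called in both comparisons, with log2 values between -0.53 and -0.65. MT-ND5 and MT-ATP8 passed with SMAP (log2 = -0.63 and -0.47, edgeR adjusted p = 0.0082 and 0.0497) and not with ATUX (log2 = -0.39 and -0.27), a difference between comparisons that was not tested. With SMAP, the call of MT-ATP8 was lost in 7 of 15 alternatives and that of MT-ND5 in 1.

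MT-CO2, which holds the copper site that takes electrons from cytochrome c, lay between 2988 and 4401 CPM in Sorafenib, 3175 and 4735 CPM in ATUX and 2999 and 4224 CPM in SMAP libraries, ranges that overlapped throughout. Its log2 differences from Sorafenib were 0.21 ± 0.17 with ATUX and 0.04 ± 0.16 with SMAP, and those of MT-CO3 were 0.02 and -0.07 and of MT-CO1 -0.23 and -0.26. MT-ATP6, the proton channel subunit of complex V, had -0.29 and -0.42 (edgeR adjusted p = 0.208 and 0.0574). MT-ND6, the only member on the other strand of the mitochondrial genome, stood at 100.6 ± 20 CPM in ATUX clones, 59.8 ± 10.3 CPM in Sorafenib clones and 65 ± 19.65 CPM in SMAP clones. The log2 for ATUX against Sorafenib was 0.75 ± 0.30 (edgeR adjusted p = 0.106). The third ATUX8H and ATUX9D libraries were at 59.9 and 63.1 CPM, below the 83.7 to 157.1 CPM of the other ATUX libraries.

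The ratio of complex I to cytochrome oxidase transcripts (MT-ND1 to MT-ND5 with MT-ND4L, over MT-CO1 to MT-CO3) was higher in Sorafenib libraries than in all others, while ATUX and SMAP libraries overlapped. It is taken within each library, so that it does not depend on scaling. It was 1.37, 1.27 and 1.33 in Sor6G, 1.03, 1.05 and 0.962 in Sor9H, 0.745 to 0.911 in ATUX and 0.727 to 0.810 in SMAP libraries, the third ATUX8H and ATUX9D libraries being the highest of ATUX at 0.911 and 0.835. All Sorafenib libraries lay above all others, including the third of Sor9H, and Sor6G lay above Sor9H. Over clones the ratio was 1.17 ± 0.217 with Sorafenib, 0.791 ± 0.0219 with ATUX and 0.774 ± 0.0348 with SMAP. Such a ratio shows unequal change and not which of its parts changed.

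**Figure D3:**
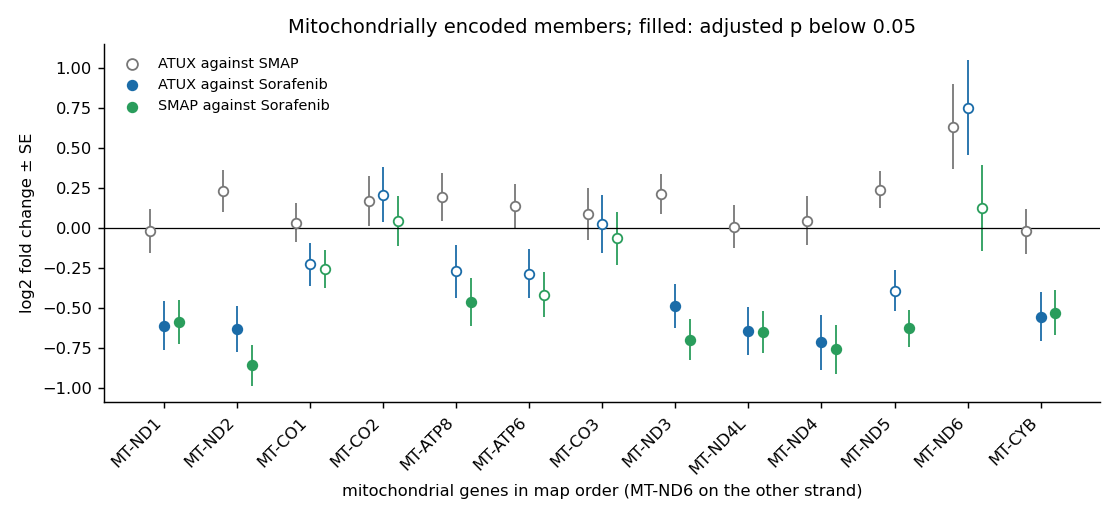
Log2 fold change ± SE of the 13 mitochondrial members in the order of their genes on the mitochondrial genome, for the 3 drug comparisons; filled points have an edgeR adjusted p below 0.05. Against Sorafenib the complex I genes other than MT-ND6 and MT-CYB lie between -0.39 and -0.86, and MT-CO1 to MT-CO3 lie between -0.26 and 0.21.

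The calls of mitochondrial genes rested on few clones. With ATUX against Sorafenib, 0 of 13 were called without ATUX8H or Sor6G, 1 without Sor9H and 2 without ATUX9D, while the median stayed between -0.34 and -0.49. With SMAP against Sorafenib, 2 were called without Sor6G and 6 without Sor9H (medians -0.49 and -0.47, beside -0.53), and the calls of MT-ND2 and MT-ND3 were kept under every alternative. Without the third Sor9H library 7 and 9 were called (medians -0.51 and -0.62), and without the third ATUX libraries 5 and 9 (medians -0.33 and -0.53), where MT-ND3 was lost with ATUX (edgeR adjusted p = 0.0559). MT-ND5 passed with ATUX without the third Sor9H library (log2 = -0.51, edgeR adjusted p = 0.0313). MT-ATP6 passed with SMAP without the third ATUX libraries and without the third Sor9H library (log2 = -0.42 and -0.50, edgeR adjusted p = 0.0433 and 0.0313).

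The gene overlaps bear on what was counted, and are shown together with the gene ends from GENCODE 29 on GRCh38. The last 18 bases of the complex I transcripts lower in both comparisons and of the cytochrome oxidase transcripts are given with the annotated end of the reading frame in capitals. Endings of T or TA alone are incomplete stop codons, which polyadenylation completes in mitochondria.
MT-ND1 (chrMT:3307-4262, plus strand): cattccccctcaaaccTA
MT-ND2 (chrMT:4470-5511, plus strand): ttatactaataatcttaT
MT-ND3 (chrMT:10059-10404, plus strand): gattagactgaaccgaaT
MT-ND4L (chrMT:10470-10766, plus strand): aacctactccaatgcTAA
MT-ND4 (chrMT:10760-12137, plus strand): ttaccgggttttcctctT
MT-CO1 (chrMT:5904-7445, plus strand): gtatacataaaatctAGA
MT-CO2 (chrMT:7586-8269, plus strand): cccgtatttaccctaTAG
MT-CO3 (chrMT:9207-9990, plus strand): tctattgatgagggtctT
MT-CO3, MT-ND2, MT-ND3 and MT-ND4 end in a single T, and MT-ND4L ends in a complete TAA. The part of the endings in the calls was not tested.

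MT-ND4L and MT-ND4 lie on 1 bicistronic RNA and overlap by 7 bases, as MT-ATP8 and MT-ATP6 do by 46 bases, which is 22.2% of MT-ATP8. The overlaps are in capitals, with 12 bases on either side.
MT-ND4L and MT-ND4 (overlap chrMT:10760-10766): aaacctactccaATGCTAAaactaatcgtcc
MT-ATP8 and MT-ATP6 (overlap chrMT:8527-8572): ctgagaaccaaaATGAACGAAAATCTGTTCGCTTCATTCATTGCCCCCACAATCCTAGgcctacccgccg
The pair MT-ND4L and MT-ND4 moved by like amounts (log2 = -0.65 and -0.72 with ATUX, -0.65 and -0.76 with SMAP), and reads in an overlap cannot be assigned to 1 gene. Nuclear copies of mitochondrial genes also drew counts, led by MTATP6P1 with 172848 counts (248 to 462 CPM), MTND2P28 with 26235 and MTCO1P12 with 11458, so that levels of MT-ATP6, MT-ND2 and MT-CO1 carry an uncertainty from reads with several matches.

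Per kilobase of the table's gene length and averaged over clones, mitochondrial transcripts stood far above nuclear ones. MT-CO3 was highest at 5903 CPM per kilobase, MT-CO2 followed at 5477, MT-ND4 at 4432 and MT-CO1 at 4387, and MT-ND6 was lowest at 140.3. Among nuclear subunits the highest of each complex were ATP5B of complex V at 343, NDUFS5 of complex I at 182, COX8A of complex IV at 171, UQCRH of complex III at 127 and SDHB of complex II at 46.9 CPM per kilobase. The lowest with counts were NDUFA7 of complex I at 0.171, UQCRHL of complex III at 2.73 and ATP5L2 of complex V at 0.0102 CPM per kilobase. The median was 19.7 for nuclear complex I and 34.7 for nuclear complex III.

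Of the 104 members, 97 passed the filter on low counts and were tested between drugs, and 94 between clones. The 7 others had few or no counts: COX4I2, COX7A1 and a row with a further SDHD identifier (ENSG00000255292) had 0, and COX6A2, COX7B2, COX8C and ATP5L2 had 9, 10, 3 and 4 over the 21 libraries. NDUFA7, NDUFV2 and NDUFA13 had 119, 296 and 330 counts in all; each overlaps another annotated gene on its own strand, and reads of overlapping genes may have been left out of the counts, so these totals are uncertain. Altogether 37 members, SDHD and NDUFS3 among them, overlap a gene on the same strand, so that their levels may carry the same uncertainty. Pseudogenes of their name are in the table for 59 members.

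Members as a whole were called about as often as other genes. With ATUX against SMAP 6 were higher and 3 lower (9.28%, where 10.3% of all genes were called, 5.27% higher and 5.06% lower), with ATUX against Sorafenib 16 and 10 (26.8%, where 25.8% were), and with SMAP against Sorafenib 14 and 17 (32%, where 34.5% were). Of the 82 nuclear subunit members tested, 16 passed as higher and 3 as lower for ATUX against Sorafenib (19.5 and 3.66%, beside 13.3 and 12.5% of all genes; median log2 = 0.23). With SMAP against Sorafenib 13 were higher and 8 lower (15.9 and 9.76%, beside 16.8 and 17.7%; median 0.07), and with ATUX against SMAP 5 and 3 (median 0.14). Of the 9, 26 and 31 called members, 3, 4 and 11 kept their call under every alternative, most losses being in fits without a clone. The count of 9 fell to 5, 4, 3 and 4 without ATUX8H, ATUX9D, SMAP8D and SMAP9C. The count of 26 fell to 9, 8, 7, 7 and 14 without ATUX8H, ATUX9D, Sor6G, Sor9H and SMAP8D, and the count of 31 to 17 and 19 without Sor6G and Sor9H.

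**Figure D4:**
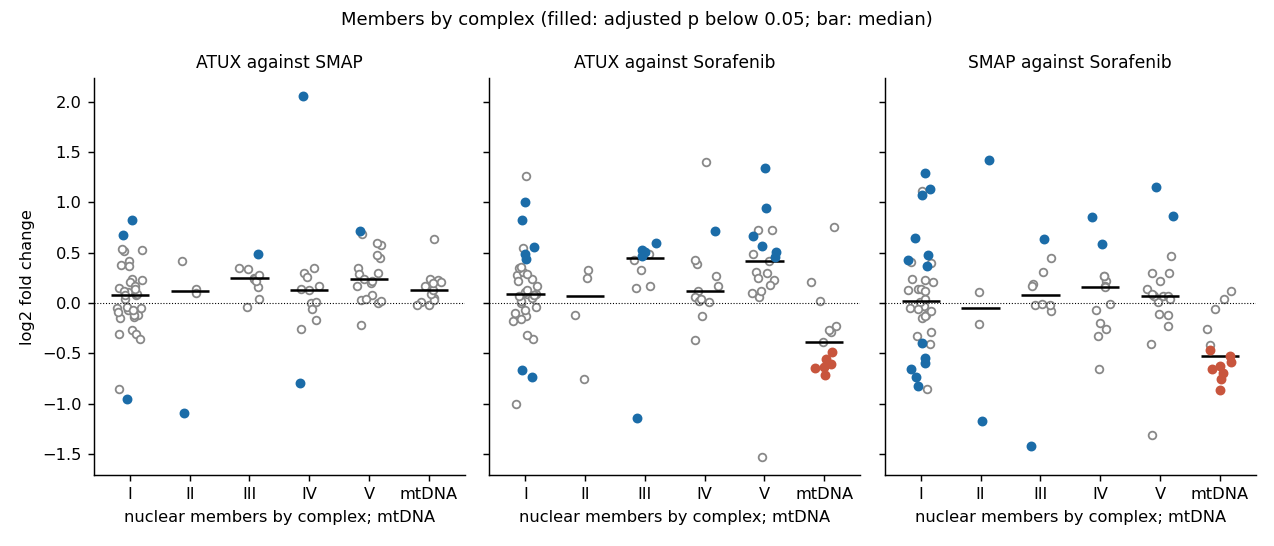
Log2 fold changes of the tested members by complex (nuclear subunits of complexes I to V, and the mitochondrially encoded genes in the column mtDNA) in the 3 drug comparisons; filled points have an edgeR adjusted p below 0.05 and bars are medians. Against Sorafenib the mitochondrial genes have medians of -0.39 and -0.53, while nuclear complexes III and V have medians of 0.45 and 0.41 with ATUX and 0.08 and 0.07 with SMAP.

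Nuclear complex I genes were called in both directions. Of 36 tested, 5 passed as higher and 2 as lower for ATUX against Sorafenib (13.9 and 5.56%, beside 13.3 and 12.5% of all genes; median log2 = 0.09), and 7 passed as higher and 6 as lower for SMAP against Sorafenib (19.4 and 16.7%, beside 16.8 and 17.7%; median 0.02). NDUFS6, an accessory subunit of the electron input module, was higher with SMAP than with either other drug. Its SMAP libraries lay between 127.0 and 168.3 CPM (median 134.8), the ATUX libraries between 63.1 and 82.4 CPM (median 71.6) and the Sorafenib libraries between 52.2 and 64.4 CPM (median 55.2). SMAP did not overlap the others. The log2 was 1.29 ± 0.12 for SMAP against Sorafenib and -0.95 ± 0.12 for ATUX against SMAP (edgeR adjusted p = 0.00135 and 0.0113). Its 23 neighbours within 5 Mb had medians of 1.28 and -0.97.

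NDUFS1, the largest iron-sulfur subunit of complex I, and NDUFA10 were lower with SMAP. NDUFS1 was at 124.5 ± 12.8 CPM in SMAP clones, 220.7 ± 24.9 CPM in ATUX clones and 195.9 ± 6.72 CPM in Sorafenib clones (log2 = 0.83 ± 0.13 between ATUX and SMAP, and -0.65 ± 0.13 between SMAP and Sorafenib, edgeR adjusted p = 0.0154 and 0.01). NDUFA10 was at 71.4 ± 7.56, 114.1 ± 0.488 and 107.7 ± 0.25 CPM in the same order (log2 = 0.68 and -0.59, edgeR adjusted p = 0.0184 and 0.00913). Both lie on chromosome 2, and the 38 neighbours of each had medians of 0.49 and -0.58 for NDUFS1 and 0.48 and -0.41 for NDUFA10. For ATUX against SMAP the calls were lost without ATUX9D, SMAP8D or SMAP9C (highest edgeR adjusted p = 0.0565 for NDUFS1 and 0.0618 for NDUFA10, the latter also lost without ATUX8H), and for SMAP against Sorafenib without Sor9H (edgeR adjusted p = 0.0644 and 0.0552).

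NDUFA2 and NDUFB11, accessory subunits of complex I, were lowest with Sorafenib. NDUFA2 was at 36.5 ± 0.515 CPM in ATUX clones, 38.2 ± 3.96 CPM in SMAP clones and 18.2 ± 2.64 CPM in Sorafenib clones (log2 = 1.01 ± 0.16 and 1.07 ± 0.15, edgeR adjusted p = 0.00774 and 0.00336), where its 56 neighbours had medians of 0.60 and 0.56. NDUFB11, an X-linked subunit of the membrane arm, was at 61.9 ± 18.1, 76.4 ± 3.75 and 35 ± 3.99 CPM (log2 = 0.82 ± 0.20 and 1.13 ± 0.19, edgeR adjusted p = 0.0296 and 0.00649), beside neighbour medians of 0.58 and 0.89. NDUFS3, an iron-sulfur protein of the peripheral arm, was highest with Sorafenib at 91.2 ± 15.4 CPM, against 54.9 ± 1.74 CPM in ATUX clones and 51.5 ± 6.38 CPM in SMAP clones (log2 = -0.73 and -0.82, edgeR adjusted p = 0.0229 and 0.0081), and its 42 neighbours had medians of -0.88 and -0.98. NDUFB10 was also higher with Sorafenib, at 108.3 CPM against 68.3 CPM in ATUX clones (log2 = -0.66 ± 0.14, edgeR adjusted p = 0.0168), beside a neighbour median of -0.52. NDUFA5 was at 51.4 ± 10.9 CPM in SMAP clones and 85.6 ± 12.9 CPM in Sorafenib clones (log2 = -0.74 ± 0.19, edgeR adjusted p = 0.0261), beside a neighbour median of -0.79. These calls other than those of NDUFA2 were lost without some clones, at an edgeR adjusted p of up to 0.146 for NDUFB11 with ATUX (without ATUX8H, Sor6G, Sor9H or SMAP8D) and 0.0504 with SMAP (without Sor6G). The same figure was 0.109 for NDUFS3 with ATUX (without ATUX8H, ATUX9D or Sor9H) and 0.0566 with SMAP (without Sor9H), 0.0738 for NDUFB10 (without ATUX9D or Sor9H) and 0.155 for NDUFA5 (without Sor6G, Sor9H or SMAP8D).

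Complex II, succinate dehydrogenase, is wholly nuclear, and its 4 subunits did not move together. SDHA (chr5:218241-256700, plus strand), the flavoprotein, was higher with SMAP than with either other drug. Its SMAP libraries lay between 253.3 and 356.0 CPM (median 322.3), ATUX libraries between 112.6 and 164.3 CPM (median 140.4) and Sorafenib libraries between 103.4 and 124.5 CPM (median 111.1). SMAP did not overlap the others, while ATUX and Sorafenib overlapped. The log2 was 1.42 ± 0.18 for SMAP against Sorafenib and -1.10 ± 0.17 for ATUX against SMAP (edgeR adjusted p = 0.00265 and 0.0165), and the latter call was lost without SMAP8D or SMAP9C (edgeR adjusted p = 0.0504 and 0.0531). Its 18 neighbours, shared in part with NDUFS6 on the same chromosome arm, had medians of 1.33 and -1.004.

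SDHD (chr11:112086773-112120013, plus strand), a membrane anchor that binds ubiquinone, went the other way. Its Sorafenib libraries lay between 141.0 and 178.4 CPM (median 155.3), ATUX libraries between 78.9 and 105.8 CPM (median 92.1) and SMAP libraries between 49.8 and 85.85 CPM (median 76.1). The Sorafenib libraries lay above all others. The log2 was -1.17 ± 0.23 for SMAP against Sorafenib (edgeR adjusted p = 0.0111, lost without Sor9H at 0.0693), beside a median of -0.35 over 34 neighbours, and -0.75 ± 0.26 for ATUX against Sorafenib (edgeR adjusted p = 0.0756). The iron-sulfur subunit SDHB was at 126.0, 114.3 and 106.3 CPM and the anchor SDHC at 89.8, 83.9 and 97.2 CPM in ATUX, SMAP and Sorafenib clones. Neither was called between drugs (log2 between -0.21 and 0.24).

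Nuclear complex III genes were higher in ATUX than in Sorafenib clones in 4 of 10 and lower in 1 (40 and 10%, beside 13.3 and 12.5% of all genes), with a median log2 of 0.45 and 9 positive values. UQCRC1 and UQCRC2, the core proteins, were at 130.1 and 222.0 CPM in ATUX clones against 91.8 and 154.7 CPM in Sorafenib clones (log2 = 0.50 ± 0.12 and 0.52 ± 0.11, edgeR adjusted p = 0.0279 and 0.0182), and UQCRQ at 79.3 against 52.6 CPM (log2 = 0.59, edgeR adjusted p = 0.023). The neighbours of UQCRC1, UQCRC2 and UQCRQ had medians of 0.01, -0.13 and 0.60. CYC1, cytochrome c1, was at 151.6 ± 10.9 CPM in ATUX clones, 108.0 ± 10.7 CPM in SMAP clones and 109.8 ± 0.287 CPM in Sorafenib clones (log2 = 0.49 and 0.47, edgeR adjusted p = 0.0467 and 0.0416), beside neighbour medians of -0.01 and -0.09. CYC1 lost the ATUX against SMAP call without any 1 of the 7 clones (highest edgeR adjusted p = 0.16, without ATUX9D) and the ATUX against Sorafenib call without any but SMAP9C (highest 0.156, without Sor9H). The ATUX count of 4 fell to 2 without ATUX8H or SMAP8D, and to 0 without ATUX9D, Sor6G or Sor9H, with medians from 0.35 to 0.51. With SMAP against Sorafenib 1 was higher and 1 lower (10% each, beside 16.8 and 17.7%; median 0.08).

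UQCRHL (chr1:15807169-15809348, minus strand), a copy of the hinge protein gene UQCRH (chr1:46303631-46316776, plus strand), was the complex III member that was lower. The Sorafenib libraries lay between 7.81 and 13.03 CPM (median 10.2), ATUX libraries between 4.13 and 5.74 CPM (median 4.48) and SMAP libraries between 2.98 and 4.89 CPM (median 3.75), and the Sorafenib libraries overlapped neither. The log2 was -1.15 ± 0.27 and -1.43 ± 0.24 (edgeR adjusted p = 0.0238 and 0.00602), beside neighbour medians of 0.23 and 0.21. With ATUX the call was lost without ATUX8H, ATUX9D or Sor9H (edgeR adjusted p = 0.0759, 0.0621 and 0.126). UQCRH itself was far higher, at 210.8 ± 17.9 CPM in ATUX clones, 165.5 ± 3.59 CPM in SMAP clones and 167.8 ± 23.6 CPM in Sorafenib clones. The GENCODE 29 coding sequences, both of 276 bases, are shown because the counts of the copy depend on telling them apart. UQCRH is read from 4 exons and UQCRHL from 1, and the bases that differ are in capitals.
UQCRH: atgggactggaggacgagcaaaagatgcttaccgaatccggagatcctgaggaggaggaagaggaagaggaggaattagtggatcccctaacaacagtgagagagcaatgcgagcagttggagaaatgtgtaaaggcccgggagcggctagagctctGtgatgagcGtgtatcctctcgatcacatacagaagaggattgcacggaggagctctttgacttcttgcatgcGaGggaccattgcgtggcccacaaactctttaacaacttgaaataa
UQCRHL: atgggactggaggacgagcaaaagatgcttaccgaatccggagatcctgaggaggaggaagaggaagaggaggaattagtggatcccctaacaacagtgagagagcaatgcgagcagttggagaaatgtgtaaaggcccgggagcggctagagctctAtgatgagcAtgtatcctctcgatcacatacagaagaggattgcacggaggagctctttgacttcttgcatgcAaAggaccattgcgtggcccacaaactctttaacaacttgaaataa
The sequences differ at 4 bases and share 272 (98.6%), with a shared run of 157 bases. Reads from that run match both genes, so the level of UQCRHL is uncertain.

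Of 13 nuclear complex IV genes, 1 was higher in ATUX than in Sorafenib clones (7.69% called, beside 25.8% of all genes), 2 were higher in SMAP than in Sorafenib clones (15.4%, beside 34.5%), and 1 passed as higher and 1 as lower for ATUX against SMAP (15.4%, beside 10.3%). COX5A, a structural subunit, was higher with SMAP. Its SMAP libraries lay between 119.0 and 136.6 CPM (median 123.6), ATUX libraries between 61.1 and 80.5 CPM (median 71.7) and Sorafenib libraries between 65.9 and 74.5 CPM (median 68.4), and SMAP overlapped neither. The log2 was 0.85 ± 0.11 for SMAP against Sorafenib and -0.79 ± 0.11 for ATUX against SMAP (edgeR adjusted p = 0.00289 and 0.0122), both kept under every alternative, beside neighbour medians of 0.39 and -0.78. COX7C was lowest with Sorafenib at 87.7 ± 22 CPM, against 143.8 ± 13 CPM in ATUX clones and 131.1 ± 15.2 CPM in SMAP clones (log2 = 0.71 ± 0.20 and 0.58 ± 0.19, edgeR adjusted p = 0.0421 and 0.0497), beside neighbour medians of 0.52 and 0.64. Both calls were lost without any 1 clone other than Sor9H (highest edgeR adjusted p = 0.178 and 0.245, without Sor6G), and that with SMAP also without the third ATUX libraries (edgeR adjusted p = 0.0502).

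Several complex IV subunits have isoforms restricted to tissues such as lung, heart, muscle or testis. The common isoforms were the ones found here. COX4I1 was at 147.4, 134.7 and 136.0 CPM in ATUX, SMAP and Sorafenib clones, and COX4I2, the isoform known from lung, had 0 counts. COX6A1 was at 51.0, 41.5 and 49.6 CPM and COX7A2 at 130.8, 109.5 and 97.3 CPM, while their heart and muscle partners COX6A2 and COX7A1 had 9 and 0 counts in all. COX7B and COX8A stood between 72.1 and 89.6 CPM in every drug, and COX7B2 and COX8C at 10 and 3 counts in all. COX7A2L, which takes part in joining complexes III and IV, was at 111.4 to 121.9 CPM. COX6B2, known from testis, had low counts that differed: ATUX libraries lay between 1.39 and 3.78 CPM, SMAP libraries between 0.158 and 1.17 CPM and Sorafenib libraries between 0.572 and 1.29 CPM. It was higher in ATUX than in SMAP clones (log2 = 2.05 ± 0.49, edgeR adjusted p = 0.0471), a call lost without any 1 clone other than SMAP9C (highest edgeR adjusted p = 0.151, without ATUX9D), and far below its common partner COX6B1 at 77.8 to 101.6 CPM.

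Complex V is the ATP synthase, and its nuclear genes were taken by ATP5 names. Of 19 tested, 6 passed as higher and 0 as lower for ATUX against Sorafenib (31.6 and 0%, beside 13.3 and 12.5% of all genes). By DESeq2 0 were lower, as were 0 at an unadjusted p below 0.05 by edgeR. The median log2 was 0.41, with 18 positive values. The 19 include ATP5S and ATP5SL, and also ATP5EP2 and ATP5J2-PTCD1, which had 55 and 46 counts in all. Whether each of the 19 encodes a subunit of the enzyme was not tested. Those called were ATP5A1, ATP5B, ATP5F1, ATP5G1, ATP5G3 and ATP5H. With SMAP against Sorafenib 2 of 19 were higher (10.5%, beside 16.8%; median 0.07). ATP5A1 (ENSG00000152234), the alpha subunit of the catalytic head, was lowest with Sorafenib, where libraries lay between 141.1 and 182.3 CPM (median 157.0), against 346.8 to 459.9 CPM in ATUX (median 399.3) and 341.2 to 369.3 CPM in SMAP libraries (median 359.5). Sorafenib overlapped neither. The log2 was 1.34 ± 0.16 and 1.151 ± 0.145 (edgeR adjusted p = 0.00402 and 0.00276), beside medians of 1.18 and 1.09 over 21 neighbours. ATP5E, the epsilon subunit, was higher with ATUX (208.8 ± 13.5 CPM) than with SMAP (127.5 ± 14.4 CPM, log2 = 0.71 ± 0.13, edgeR adjusted p = 0.0249), beside a neighbour median of 0.59, a call lost without ATUX8H, ATUX9D, SMAP8D or SMAP9C (highest edgeR adjusted p = 0.0843). The complex V count of 6 with ATUX fell to 3, 2, 2, 3 and 2 without ATUX8H, ATUX9D, Sor6G, Sor9H and SMAP8D, with medians from 0.27 to 0.54.

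ATP5G1 (ENSG00000159199, now named ATP5MC1) encodes subunit c, which forms the rotor ring. Its Sorafenib libraries lay between 48.3 and 59.4 CPM (median 54.5), ATUX libraries between 90.3 and 115.7 CPM (median 104.7) and SMAP libraries between 80.8 and 111.5 CPM (median 101.9). Sorafenib lay below all others. The log2 was 0.94 ± 0.15 with ATUX and 0.86 ± 0.14 with SMAP (edgeR adjusted p = 0.00837 and 0.00563), kept under every alternative, beside medians of 0.16 and 0.13 over 89 neighbours. ATP5B, the beta subunit and the most abundant nuclear member per kilobase, was at 986.1 ± 112 CPM in ATUX clones and 718.0 ± 16.6 CPM in Sorafenib clones (log2 = 0.46 ± 0.13, edgeR adjusted p = 0.0473, lost without any 1 clone, highest 0.187 without ATUX9D).

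Promoter windows of RefSeq (GRCh38.p14, 250 bases before to 50 after a start) were found for 67 of 89 nuclear subunit members (75.3%), too few for a share over the members, so that none is given. The sites searched on both strands were those of NRF1 (GCGCATG, and its palindrome GCGCATGCGC, which contains it), of ETS factors such as NRF2/GABP (CCGGAAG) and the cyclic AMP response element (TGACGTCA). Of all 35116 windows, 4.43% hold GCGCATG, 1.24% the palindrome, 10.3% CCGGAAG and 1.85% TGACGTCA. The stretches below belong to 3 members picked by hand from those whose drug differences were described above, with the match in capitals. Matches in the windows of other members are not shown. They are matches of letters, not tested sites. Distances are counted to the RefSeq start of each window, which is not the gene start given in the count table.
ATP5G1, TGACGTCA 57 bases before the start (chr17:48892537-48892764, plus strand): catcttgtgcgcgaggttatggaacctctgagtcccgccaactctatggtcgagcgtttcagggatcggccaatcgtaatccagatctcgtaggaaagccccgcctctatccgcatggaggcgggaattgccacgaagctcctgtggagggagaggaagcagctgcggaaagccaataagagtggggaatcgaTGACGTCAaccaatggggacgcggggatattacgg
SDHD, GCGCATGCGC 110 bases before the start (chr11:112086753-112086782, plus strand): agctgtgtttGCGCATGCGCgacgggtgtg
NDUFS6, GCGCATG 46 bases before the start (chr5:1801350-1801379, plus strand): ccagaagccgtGCGCATGcgttagcgctaa
The SDHD window also holds CTTCCGG, the reverse complement of CCGGAAG, 77 bases before the same RefSeq start. The part of such letters in the drug differences was not tested.

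The median of neighbouring genes within 5 Mb often had the sign of a called nuclear subunit, as it did for called genes in general. At 5 CPM or more, the signs matched for 6 of 7 called nuclear subunits in ATUX against SMAP, 14 of 19 in ATUX against Sorafenib and 19 of 21 in SMAP against Sorafenib (85.7, 73.7 and 90.5%, beside 81.9, 69.7 and 72.1% of all called genes). Where the neighbours' median also lay at least 0.1 (log2) from 0, the counts were 6, 12 and 16 (85.7, 63.2 and 76.2%, beside 65.6, 47.8 and 54.3%). These shares are given with no test, since genes of a region share their neighbours. Grouped after their values were seen, SDHA, NDUFS6, NDUFS3, NDUFA5 and ATP5A1 lay no farther than 0.161 (log2) from their neighbours' median where they were called, and ATP5G1, UQCRHL and SDHD between 0.731 and 1.64 from it. What moves the neighbours was not tested.

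**Figure D5:**
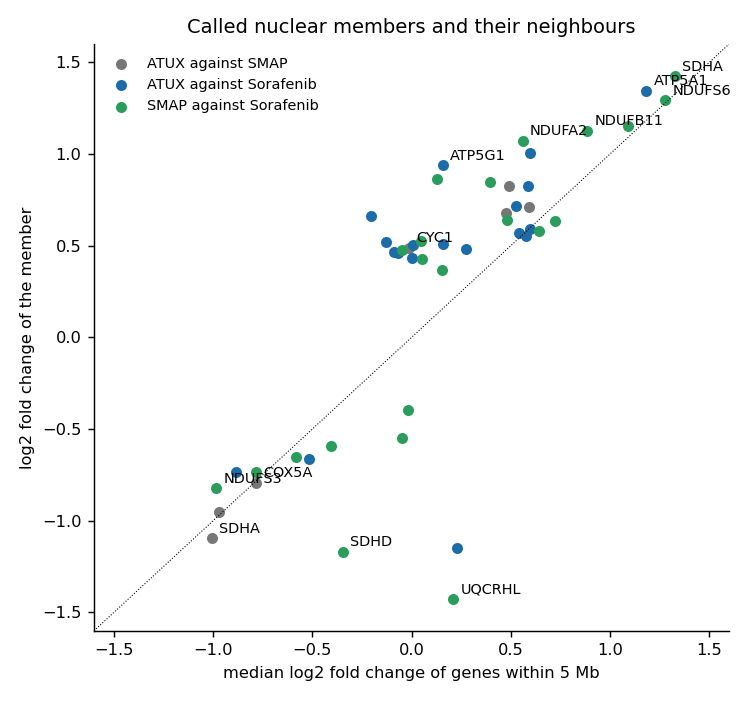
Log2 fold change of each called nuclear subunit (vertical) against the median log2 fold change of the other genes within 5 Mb (horizontal), for the 3 drug comparisons; the dotted line marks equal values and COX6B2, at under 5 CPM, is left out. SDHA, NDUFS6 and ATP5A1 lie near the line, and ATP5G1, UQCRHL and SDHD lie off it.

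Members also differed between clones of the same drug. Sor6G had 0 members higher and 44 lower than Sor9H of 94 tested (46.8%, where 33.7% of the 16504 genes tested were called, 16% higher and 17.7% lower). Of these, 43 were among the 79 nuclear subunits, which had a median log2 of -0.19 beside -0.01 over all genes (0 higher and 41 lower by DESeq2, 1 higher and 45 lower at an unadjusted p below 0.05 by edgeR). The count of 44 fell to 29 without Sor6G replicate 1 and 31 without the third Sor9H library, where 28 nuclear subunits were lower (median -0.13). UQCRHL was at 8.41 CPM in Sor6G and 12.3 CPM in Sor9H, and COX7C at 71.9 and 103.4 CPM (log2 = -0.54 ± 0.12 and -0.52 ± 0.05, edgeR adjusted p = 0.00105 and 3.78e-08). Among the mitochondrial genes 1 was lower, 3 without the third Sor9H library and 0 when repeat numbers were blocked within these clones.

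ATUX8H had 12 members higher and 21 lower than ATUX9D (35.1%, where 46.1% of all genes were called, 23.1% higher and 23% lower). Genes with ATP5 names, taken as complex V, accounted for 10 of those lower, of 17 tested, ATP5SL among them. NDUFA1, an X-linked complex I subunit, was at 123.5 CPM in ATUX8H and 50.0 CPM in ATUX9D (log2 = 1.31 ± 0.0847, edgeR adjusted p = 1.68e-11) and COX7B, also X-linked, at 92.1 and 51.95 CPM (log2 = 0.83 ± 0.07), beside neighbour medians of 1.21 and 0.91. ATP5SL and the subunit c gene ATP5G2 were lower in ATUX8H (log2 = -0.59 and -0.42), where neighbours had medians of -0.02 and -0.06.

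Among SMAP clones, 12 members were higher and 14 lower in SMAP8D than in SMAP9C (27.7%, beside 35.1% of all genes, 17.3% higher and 17.9% lower), 6 and 25 in SMAP8D than in SMAP6G (33%, beside 34.8%, 17.2% and 17.6%) and 12 and 26 in SMAP9C than in SMAP6G (40.4%, beside 39.7%, 20% and 19.7%). SDHD was at 75.7 CPM in SMAP8D, 50.5 CPM in SMAP9C and 85.35 CPM in SMAP6G. SMAP9C was lower than both (log2 = 0.58 ± 0.05 for SMAP8D against SMAP9C and -0.76 ± 0.05 for SMAP9C against SMAP6G, edgeR adjusted p = 6.95e-10 and 5.21e-12), as it was for ATP5L, a membrane subunit of ATP synthase also on chromosome 11 (135.1, 94.5 and 153.3 CPM). ATP5D, the delta subunit, was lowest in SMAP8D at 34.7 CPM, against 55.2 CPM in SMAP9C and 52.3 CPM in SMAP6G (log2 = -0.67 and -0.59), and NDUFS7 was at 24.2 CPM in SMAP8D against 34.4 CPM in SMAP9C (log2 = -0.51). SDHA was lowest in SMAP6G (261.9 CPM, against 317.3 and 336.8 CPM). COX5B was lower in SMAP8D than in SMAP6G (log2 = -0.41), NDUFA12 higher (log2 = 0.33), and UQCR11 higher in SMAP9C than in SMAP6G (log2 = 0.34).

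Further genes of the pathway were read from lists of machinery around the complexes. Of 75 mitochondrial ribosomal proteins, which build the ribosome that translates the mitochondrial members, 14 passed as higher and 2 as lower for ATUX against Sorafenib, 16 and 4 for SMAP against Sorafenib, and 3 and 5 for ATUX against SMAP (21.3, 26.7 and 10.7% called, beside 25.8, 34.5 and 10.3% of all genes; medians 0.07, 0.07 and 0.08). MRPS6 was at 109.9 ± 1.06 CPM in SMAP clones, 70.6 ± 1.04 CPM in ATUX clones and 29.9 ± 8.7 CPM in Sorafenib clones (log2 against Sorafenib 1.88 ± 0.18 and 1.24 ± 0.19, edgeR adjusted p = 0.00138 and 0.00749). MRPL34 was lowest with ATUX at 11.0 ± 0.517 CPM, against 34.3 ± 9.53 CPM in SMAP clones and 26.9 ± 0.597 CPM in Sorafenib clones (log2 = -1.64 and -1.29, edgeR adjusted p = 0.0134 and 0.0142). MRPL55 was lower in SMAP than in Sorafenib clones (log2 = -1.11), and MRPS12 higher in ATUX than in SMAP clones (log2 = 0.95).

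Of 18 genes of mitochondrial DNA maintenance and transcription, 1 passed as higher and 1 as lower for ATUX against Sorafenib and 2 and 2 for SMAP against Sorafenib (11.1 and 22.2% called, beside 25.8 and 34.5% of all genes). TEFM, the elongation factor of mitochondrial RNA polymerase, was lower with Sorafenib, at 7.71 ± 1.43 CPM against 15.2 ± 0.218 CPM in ATUX clones and 13.4 ± 2.24 CPM in SMAP clones (log2 = 0.98 ± 0.22 and 0.80 ± 0.21, edgeR adjusted p = 0.0231 and 0.0259). The mitochondrial thymidine kinase TK2 was higher with Sorafenib than with ATUX (log2 = -0.75) and MTERF4 higher than with SMAP (log2 = -0.78), and the nuclease MGME1 was higher in ATUX than in SMAP clones (log2 = 0.90). Of 17 genes of mitochondrial RNA stability and processing, 5 were higher and 1 lower with ATUX and 6 higher and 3 lower with SMAP, each against Sorafenib (35.3 and 52.9% called, beside the same 25.8 and 34.5%). HSD17B10, a subunit of mitochondrial RNase P, was at 81.05 ± 25.1 CPM in ATUX clones, 84.1 ± 1.26 CPM in SMAP clones and 31.9 ± 2.38 CPM in Sorafenib clones (log2 = 1.35 and 1.399, edgeR adjusted p = 0.00738 and 0.00352). FASTK, whose mitochondrial form stabilises MT-ND6 RNA, was highest with Sorafenib (log2 = -0.73 and -0.81, edgeR adjusted p = 0.0487 and 0.0199). FASTKD3 was lower and FASTKD2 higher in ATUX than in SMAP clones (log2 = -0.96 and 0.53).

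Of 45 assembly factors of complexes I to V, 7 passed as higher and 5 as lower for ATUX against Sorafenib, 6 and 8 for SMAP against Sorafenib, and 2 and 0 for ATUX against SMAP (26.7, 31.1 and 4.44% called, beside 25.8, 34.5 and 10.3% of all genes; medians -0.01, -0.01 and 0.10). NDUFAF2, of complex I assembly, was at 19.7 ± 1.32 CPM in ATUX clones, 20.4 ± 1.56 CPM in SMAP clones and 8.72 ± 0.176 CPM in Sorafenib clones (log2 = 1.17 and 1.22, edgeR adjusted p = 0.00475 and 0.00206). TTC19, of complex III assembly, was lower in ATUX than in Sorafenib clones (log2 = -0.86), COX19 lower in SMAP than in Sorafenib clones (log2 = -0.95), and BCS1L, which inserts the Rieske protein, higher in ATUX than in SMAP clones (log2 = 0.87).

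Of 13 electron carriers and carriers of ATP, 2 passed as higher and 1 as lower for ATUX against Sorafenib and 3 and 2 for SMAP against Sorafenib (23.1 and 38.5% called, beside 25.8 and 34.5% of all genes). The X-linked ADP/ATP carrier SLC25A5 was higher with ATUX (349.9 ± 212 CPM) and SMAP (334.0 ± 30.9 CPM) than with Sorafenib, where it stood at 112.9 ± 1.46 CPM. The log2 differences were 1.63 ± 0.39 and 1.56 ± 0.37 (edgeR adjusted p = 0.0267 and 0.0192), and the ATUX clones differed widely from each other. SLC25A6, another ADP/ATP carrier, was higher in SMAP than in ATUX clones (log2 = -0.90). SQRDL, which passes electrons from sulfide to ubiquinone, was highest with Sorafenib at 73.9 ± 0.344 CPM, against 33.8 and 34.1 CPM (log2 = -1.13 and -1.11, edgeR adjusted p = 0.0039 and 0.00158). GPD2, of the glycerol phosphate shuttle, was higher in ATUX than in SMAP clones (log2 = 0.57).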

How the data were processed

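RNA-seq counts of 21 libraries (7 clones, 3 repeats each) were used. The authors deposited whole-number counts per gene, not normalized, with each gene's length and its GC content in percent, which was not used. The submitters' processing notes name GRCh38, trimming and alignment tools (cutadapt 1.15, STAR 2.5.2b and Bowtie2 2.3.3.1), SAMtools 1.5 and, for counting, featureCounts 1.5.3. For strand setting, reads with several matches and annotation release the sources used here say nothing.

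Clones were taken from the genotype label and drugs from the treatment labels. To compare drugs, the 3 libraries of each clone were added up and the 7 sums fitted with edgeR 4.0.16 under R 4.3.3 (with filterByExpr, TMM scaling, robust quasi-likelihood, 18613 genes). To compare clones, the 21 libraries were fitted with the clone as factor (16504 genes). A call is a Benjamini-Hochberg adjusted p below 0.05 over all genes tested. CPM means of a drug are over clone sums, and CPM values of a single clone are means of its libraries. Shares of counts and ratios were averaged over the libraries of a clone and then over clones. The labels do not say whether repeats were separate cultures. The chi-square per degree of freedom of repeat pairs ranged from 2.19 to 27.4, above sampling noise in each pair, so all were counted. Deviations from clone means of libraries with the same repeat number correlated above 0.1 in all 3 pairs of ATUX8H with ATUX9D (0.175 to 0.28) and of Sor6G with Sor9H (0.117 to 0.168), so the numbers pair these clones by the data and not by the labels. In no other pair of clones were all 3 above 0.1. The fits were tested on simulated counts. Alternatives were DESeq2 1.42.0, other scalings, no filter, leaving out clones or libraries, and 21 libraries with or without a replicate block. Neighbours are non-members within 5 Mb at 5 CPM or more.

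The members and lists were chosen with earlier results of these data known. Named nuclear members are, per drug comparison and direction, the 5 called with the largest change (2 between clones) at 5 CPM or more in the higher group and no overlap of libraries, besides the regulators, the mitochondrial genes, SDHA to SDHD, the isoform pairs and the highest and lowest level of each complex. From each other list, the called gene with the largest change in each direction is named. UQCRC1, UQCRC2, UQCRQ and ATP5B were added after their values were seen. Sequences are from RefSeq (GRCh38.p14) and GENCODE 29.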

Additional observations from a re-analysis of the deposited data

How the results depend on the processing

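The number of members called between drugs (9 for ATUX against SMAP, 26 for ATUX against Sorafenib and 31 for SMAP against Sorafenib) depended on the unit of replication and on single clones. With the 21 libraries as units and no replicate block it was 42, 61 and 59, and with the repeat number as a replicate block 41, 62 and 58. DESeq2 called 15, 31 and 35. Leaving out a clone gave 3 to 8, 7 to 22 and 17 to 31, where a drug left with 1 clone is assumed to vary like the others. Other size factors (9, 26 and 32), scaling from nuclear genes only (9, 26 and 30), no filter (8, 22 and 28) and fits without the third ATUX libraries (9, 24 and 31) or, chosen after the data were seen, without the third Sor9H library (9, 28 and 36) stayed within 1.5 times. Between clones, leaving out a library gave 30 to 35 for ATUX8H against ATUX9D (33), 29 to 45 for Sor6G against Sor9H (44), 21 to 24 for SMAP8D against SMAP9C (26), 24 to 27 for SMAP8D against SMAP6G (31) and 29 to 33 for SMAP9C against SMAP6G (38), and the replicate block over all clones gave 33, 41, 26, 33 and 37. A replicate block within the ATUX and the Sorafenib clones, chosen after the data were seen, gave 37 for ATUX8H against ATUX9D and 45 for Sor6G against Sor9H, and changed the call of none of the members named between these clones. No followed member changed the sign of a called difference. The direction of the nuclear median for SMAP against Sorafenib turned to -0.02 without Sor6G. Depth limits the level of PPARGC1A with SMAP, which rests on 5 counts.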
